A study of Rattus norvegicus with 26 samples.

Results

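Slc35d3, Fcrl2 and Hhatl are 3 of the 17910 gene IDs measured by RNA sequencing in the rat dentate gyrus, and 3 of the 15595 IDs that averaged 5 or more normalized counts, the genes tested. They were chosen by the comparison of Dox with Veh rats: they were the 3 genes whose p-value, adjusted by the Benjamini-Hochberg method over all tested genes in limma, was under 0.05, which is 0.0192% of the genes tested. The adjusted values that chose them were 0.0159 for Slc35d3, 0.0326 for Fcrl2 and 0.0326 for Hhatl. The difference between Dox and Veh is therefore given below as a description with no test. The nearest gene outside this limit, Dcst1, had a log2 difference of 1.75 between Dox and Veh with levels of 4.08 to 13.3 in Veh and 8.38 to 69.7 in Dox, and the next, Ttc23, had a log2 difference of -0.90, while Hhatl, the last gene inside it, had -1.23.

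The study examined whether removing senescent cells changes the effect of chemotherapy on the brain. All 26 rats were male F344 rats aged 6 months, in groups of 10 (Veh), 8 (Dox) and 8 (Dox + ABT), and 1 dentate gyrus library was sequenced per rat. Dox rats received 4 weekly doses of 2 mg/kg doxorubicin, an anthracycline that damages DNA. Dox + ABT rats received the same doses and, in addition, courses of 5 days of 12 mg/kg ABT-263, a senolytic drug that blocks survival proteins of senescent cells. Veh rats received the vehicle and belonged to a study of aging that was under way, and no group received ABT-263 without Dox. The estimated depth was 10200000 to 24300000 reads per library, and the deposited totals were 14300000 to 20300000 normalized counts. Prox1, the transcription factor of granule cells, averaged 2467 normalized counts in Veh rats, 2587 in Dox rats and 2813 in Dox + ABT rats, so granule cell RNA was present as the dentate gyrus label says. Markers of the neighbouring CA fields were present too and varied between rats, with means in Veh of 4935 for Wfs1, 1803 for Mpped1 and 1616 for Fibcd1.

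The 3 genes belong to separate families. Slc35d3 encodes a member of the SLC35 family, which carries nucleotide sugars into the endoplasmic reticulum and Golgi, and it is known for its part in platelet dense granules and in striatal neurons with dopamine D1 receptors. Fcrl2, also listed as Fcrls and Msr2, encodes a cell surface protein of the Fc receptor-like family with a scavenger receptor domain, and in the rodent brain it is known as a gene of microglia, the resident macrophages. Hhatl, also listed as Gup1, encodes a relative of hedgehog acyltransferase, the enzyme that attaches a palmitoyl group to Sonic hedgehog, and it is best known from heart and skeletal muscle. The values came from whole tissue, in which fewer cells of a type and less RNA per cell cannot be told apart.

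The start regions of 2 of the genes are shown because both genes had lower means in Dox while their levels did not follow each other from rat to rat. Each is the RefSeq window of 300 bases around the start site in build GRCr8, from 250 bases before the start, on the minus strand, with motif matches in capitals. The Slc35d3 window is chr1:16392731-16393030 and the Hhatl window is chr8:130331460-130331759.
Slc35d3: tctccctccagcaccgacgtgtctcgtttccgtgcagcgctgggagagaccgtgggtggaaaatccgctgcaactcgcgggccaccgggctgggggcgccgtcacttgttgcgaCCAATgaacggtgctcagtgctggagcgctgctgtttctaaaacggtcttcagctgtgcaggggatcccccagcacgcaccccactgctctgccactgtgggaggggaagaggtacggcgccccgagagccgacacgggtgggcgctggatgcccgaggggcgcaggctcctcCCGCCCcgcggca
Hhatl: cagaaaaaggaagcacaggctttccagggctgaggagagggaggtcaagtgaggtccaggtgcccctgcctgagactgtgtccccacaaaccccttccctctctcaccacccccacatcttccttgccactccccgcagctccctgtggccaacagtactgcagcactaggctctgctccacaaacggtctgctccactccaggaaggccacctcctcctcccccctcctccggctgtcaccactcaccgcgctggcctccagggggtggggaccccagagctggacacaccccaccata
Both strands were searched for the CCAAT box (CCAAT), the GC box (GGGCGG), the E-box (CACGTG), the TATA box (TATAAA) and a PU.1 motif of myeloid cells (GAGGAAGT). The Slc35d3 window, with a GC content of 67.7%, held a CCAAT box that begins 136 bases before the start and a GC box on the other strand 38 bases into the transcript, whereas none of the 5 motifs matched in the Hhatl window, with a GC content of 63.3%. Among all 33469 windows of this length, 37.5% held the CCAAT box, 33.1% the GC box, 6.42% the E-box, 14.2% the TATA box and 2.42% the PU.1 motif, so the matches in Slc35d3 are common ones.

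Slc35d3 was lowest in the Dox group. The values of the 10 Veh rats were 33.6, 37.1, 48.3, 58.8, 60.3, 62.7, 63.7, 69.4, 81.9 and 84.2 normalized counts. The 8 Dox rats had 7.69, 13.96, 20.6, 22.7, 26.4, 27.9, 31.3 and 32.9, and the 8 Dox + ABT rats had 30.8, 31.3, 34.0, 35.1, 42.9, 45.8, 48.8 and 57.8. No Dox rat reached the Veh range, and the Dox + ABT rats lay between, with 2 of 8 below every Veh rat and 6 of 8 above every Dox rat. The Veh mean was 60.01 ± 16.8 (SD, n = 10), the Dox mean 22.9 ± 8.65 (SD, n = 8) and the Dox + ABT mean 40.8 ± 9.62 (SD, n = 8). Every Dox rat lay below every Veh rat for 1 of the 3 genes and for 0.0128% of the genes tested, namely Slc35d3 and Serpinb6b, a serine protease inhibitor gene at 4.98 to 11.8 in Veh and 0 to 4.90 in Dox that is named after its values were seen. Because the choice of genes used these same rats, nothing is read from this count.

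Fcrl2 was lower in Dox than in both other groups, which overlapped. The lowest, median and highest values were 115, 178 and 229 normalized counts in Veh, with a mean of 175 ± 38.3 (SD, n = 10). In the Dox rats they were 48.1, 90.2 and 133, with a mean of 87.8 ± 33.3 (SD, n = 8). The 8 Dox values were 48.1, 51.2, 57.3, 78.4, 102, 114, 118 and 133. The Dox + ABT rats ran from 111 to 217 around a median of 146, with a mean of 153 ± 35.0 (SD, n = 8). Only 1 of 8 Dox + ABT rats lay below every Veh rat, against 6 of 8 Dox rats, and 6 of 8 Dox + ABT rats lay above every Dox rat.

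Hhatl had the largest coefficient of variation of the 3 genes in Veh. The lowest, median and highest values were 88.3, 230 and 295 normalized counts in Veh, with a mean of 204 ± 71.1 (SD, n = 10). Among Dox rats they were 48.4, 79.2 and 132, with a mean of 84.2 ± 26.4 (SD, n = 8). Among Dox + ABT rats they were 78.7, 125 and 203, with a mean of 128 ± 37.5 (SD, n = 8). The groups overlapped for this gene: 5 of 8 Dox rats and 1 of 8 Dox + ABT rats lay below every Veh rat, and 3 of 8 Dox + ABT rats lay above every Dox rat. The low end of Veh was made by rats 10 and 11, at 104 and 88.3, which had the highest Slc35d3 levels of their group.

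**Figure D1:**
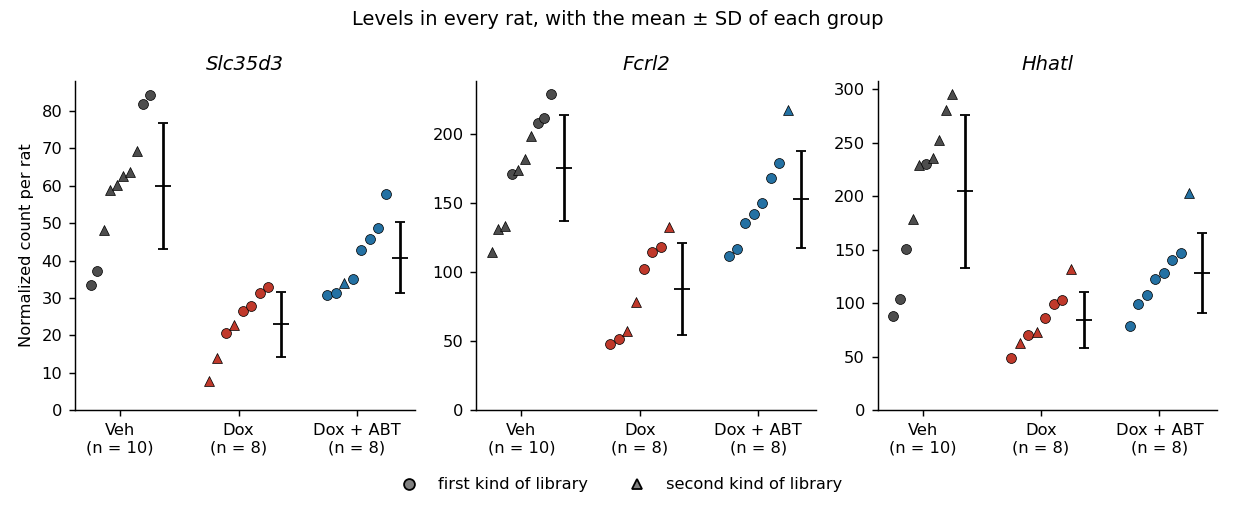
Normalized counts of Slc35d3, Fcrl2 and Hhatl (y axis) in every rat of the 3 groups (x axis), with rats sorted within a group, the bar giving the mean ± SD, and the marker giving the kind of library described below. The 8 Dox rats sit at 7.69 to 32.9 for Slc35d3, under all 10 Veh rats, while Dox and Veh overlap for the other two genes.

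The spread between rats was set beside counting error and beside genes of like level. The levels were whole multiples of the value of 1 read in all 78 cases, so that reads could be read back: 10 to 92 per rat for Slc35d3, 41 to 278 for Fcrl2 and 51 to 427 for Hhatl. The coefficient of variation of Slc35d3 was 28.0% among Veh, 37.7% among Dox and 23.6% among Dox + ABT rats, where counting alone gives 13.5%, 21.8% and 15.7%. For Fcrl2 it was 21.9%, 38.0% and 22.9%, against 7.84%, 11.3% and 8.25% from counting. For Hhatl it was 34.8%, 31.4% and 29.2%, against 8.00%, 11.04% and 8.98%. The within-group SD on the log2 scale was 0.49 for Slc35d3, 0.42 for Fcrl2 and 0.50 for Hhatl, whereas the medians over genes within 1.5 times of their mean were 0.44, 0.31 and 0.31, so that Hhatl was more variable than 90.1% of the 2317 genes near its level, Fcrl2 than 80.5% of 2286 and Slc35d3 than 61.5% of 1486.

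The libraries were of 2 kinds. The first principal component of all genes, with 29.1% of the variance, separated 16 libraries from 10 at a gap from -2.48 to 18.8, and the kinds were unevenly spread over the groups, with 4 of 10 Veh, 5 of 8 Dox and 7 of 8 Dox + ABT libraries of the first kind. The second kind had more ribosomal protein RNA, with 1.15% to 1.89% of the normalized counts against 0.570% to 1.09% in the first. Hhatl was higher in the second kind among Veh rats, with a median of 244 in 6 rats against 128 in 4, but not among Dox rats, with 72.6 in 3 rats against 85.8 in 5. Slc35d3 differed between the kinds among Dox rats, with a median of 13.96 against 27.9, and Fcrl2 among Veh rats in the opposite direction to Hhatl, with 154 in the second kind against 209 in the first. These are descriptions of libraries divided after the data were seen, and what sets the kinds apart was not tested.

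Dox levels were 38.2% of the Veh mean for Slc35d3, 50.1% for Fcrl2 and 41.2% for Hhatl. On the log2(normalized count + 1) scale the differences were -1.41 (SE 0.23) for Slc35d3, -1.05 (SE 0.19) for Fcrl2 and -1.23 (SE 0.22) for Hhatl. Within the first kind of library alone they were -0.96, -1.33 and -0.76, and within the second kind, with 6 Veh and 3 Dox rats, they were -2.07, -0.85 and -1.51. All 3 genes were thus lower in Dox in both kinds, Slc35d3 and Hhatl by more in the second kind and Fcrl2 by more in the first, a difference that was not tested. Across all genes at p under 0.01, 1.02% were higher and 1.85% lower in Dox than in Veh, and nothing is read from the 3 members, which this comparison chose.

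Relative to Veh, Dox + ABT rats had a lower mean of each gene. The Veh rats of this comparison took part in the choice of the genes, which favoured genes that were high in these Veh rats. The differences are therefore given as a description with no test, and their intervals are not read as a test. Hhatl in Dox + ABT was at 62.7% of the Veh mean, a log2 difference of -0.62 (SE 0.22, 95% confidence interval -1.08 to -0.17). Slc35d3 was at 68.0%, a log2 difference of -0.52 (SE 0.23, interval -0.99 to -0.06), and Fcrl2 was at 87.1%, a log2 difference of -0.20 (SE 0.19, interval -0.59 to 0.19). The order of the genes was another once the kind of library was taken into account. With the kind as a covariate the differences were -0.35 for Hhatl, -0.68 for Slc35d3 and -0.23 for Fcrl2. In the first kind alone, with 4 Veh and 7 Dox + ABT rats, they were -0.21, -0.40 and -0.52, so that Fcrl2 was then the furthest below Veh. With limma's arrayWeights they were -0.94, -0.58 and -0.033, in the same order as above. Among all tested genes, 3.95% were lower and 3.89% higher at p under 0.01 in this comparison, and the smallest adjusted p of any gene was 0.108.

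Relative to Dox + ABT, Dox rats had a lower mean of each gene. The same 8 Dox rats chose the genes for low levels, so these differences too are a description with no test. Their intervals are likewise not read as a test. Slc35d3 in Dox was at 56.2% of the Dox + ABT mean, a log2 difference of -0.89 (SE 0.24, interval -1.38 to -0.40). Fcrl2 was at 57.5%, a log2 difference of -0.86 (SE 0.20, interval -1.27 to -0.45). Hhatl was at 65.7%, a log2 difference of -0.61 (SE 0.23, interval -1.09 to -0.13). In the first kind of library alone Slc35d3 differed by -0.55 and Fcrl2 by -0.80. With the kind as a covariate the differences were -0.80 for Slc35d3, -0.84 for Fcrl2 and -0.75 for Hhatl. With arrayWeights they were -0.70, -0.66 and -0.37 in the same order. Of all tested genes, 1.71% were lower and 2.32% higher at p under 0.01, and the smallest adjusted p of any gene was 0.0526.

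**Figure D2:**
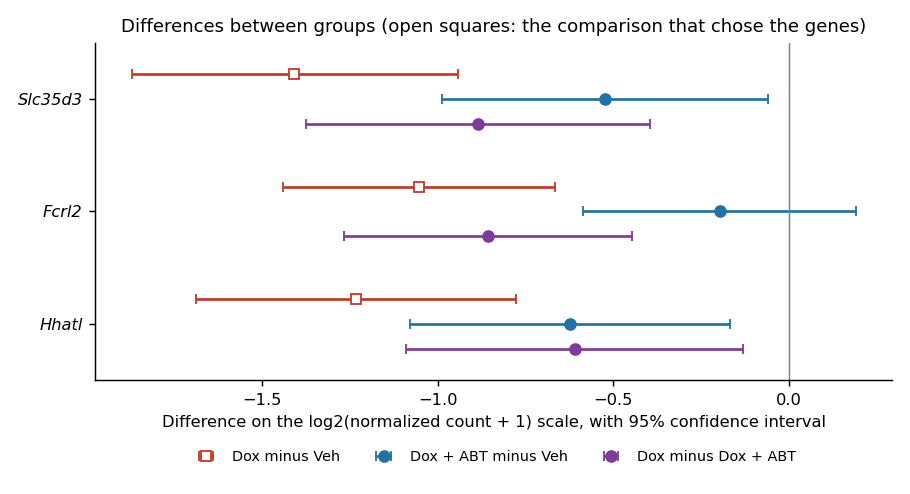
Log2 differences between groups for the 3 genes (x axis, zero marked by a line) with 95% confidence intervals from limma over 26 rats, and open squares for the comparison used to choose the genes, which shares its Veh or Dox rats with the other two. Fcrl2 shows the smallest Dox + ABT minus Veh difference, -0.20. In the first kind of library alone the Fcrl2 difference was -0.52, the furthest of the 3 from 0. The Hhatl estimate lies about as far below Veh (-0.62) as Dox lies below Dox + ABT (-0.61). Because the Veh and Dox rats chose the genes, no interval is read against 0.

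The 3 genes did not follow each other from rat to rat. Within groups, that is on deviations from group means of log2(normalized count + 1), Pearson's r over the 26 rats was -0.37 for Slc35d3 and Fcrl2 (permutation p = 0.124, adjusted p = 0.373 over 3 pairs), and Spearman's rho was -0.36 (permutation p = 0.0935). Slc35d3 and Hhatl gave r = -0.17 (permutation p = 0.416, adjusted p = 0.624) and rho = -0.23 (permutation p = 0.283). Fcrl2 and Hhatl gave r = -0.0045 (permutation p = 0.983, adjusted p = 0.983) and rho = 0.061 (permutation p = 0.783). The Slc35d3 and Fcrl2 pair was negative in each group, with r of -0.45 among Veh, -0.35 among Dox and -0.31 among Dox + ABT rats, and the 2 Dox rats with the most Slc35d3, rats 1 and 2, had the least Fcrl2 of all 26 rats. Without the 2 rats farthest from the median on the x axis, r was -0.48 for Slc35d3 and Fcrl2 and -0.33 for Slc35d3 and Hhatl, both without Dox rat 5 and Veh rat 6, and -0.24 for Fcrl2 and Hhatl, without Dox rats 1 and 2.

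The kinds of library gave different values for these pairs. For Slc35d3 and Hhatl r was -0.62 in the 16 libraries of the first kind (permutation p = 0.0487) and 0.59 in 9 libraries of the second (permutation p = 0.455). For Fcrl2 and Hhatl it was 0.40 in the first kind (permutation p = 0.147) and -0.48 in the second (permutation p = 0.398). For Slc35d3 and Fcrl2 it was -0.39 in both, with a permutation p of 0.0393 in the first and 0.606 in the second. None of these 6 values was adjusted for their number.

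**Figure D3:**
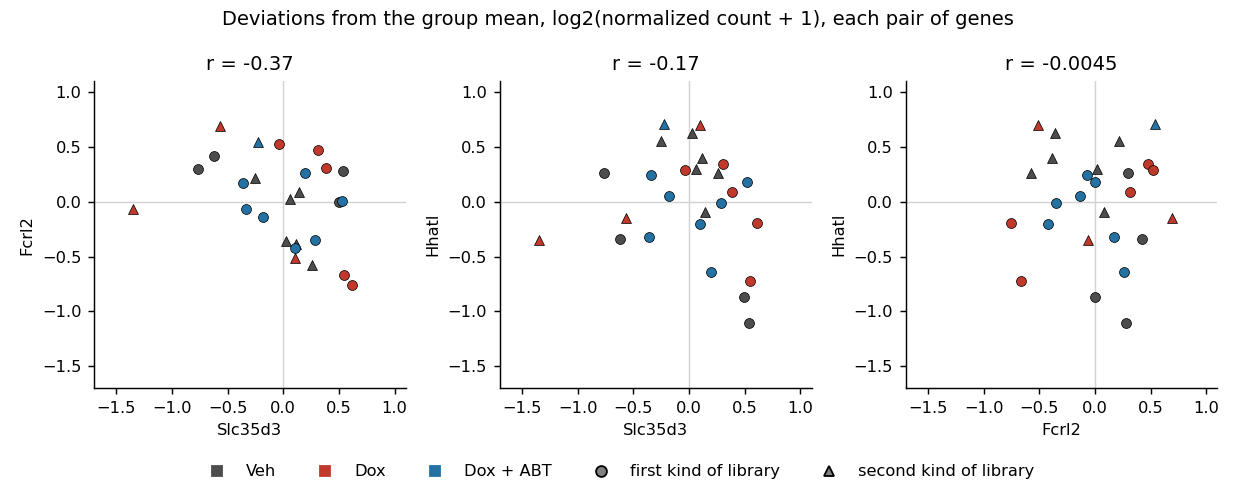
Deviations of the 3 genes from their group means on the log2(normalized count + 1) scale, 1 pair of genes per panel (x and y axes), with 1 point per rat, coloured by group and shaped by kind of library. No panel shows a common rise: r was -0.37, -0.17 and -0.0045, and the lowest Slc35d3 value, Dox rat 5, lies near the middle of the Fcrl2 axis.

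Hhatl was the member whose level followed microglial genes from rat to rat, past the adjusted threshold. Scores of 17 cell type marker lists, each the mean of its genes' z-scores, were compared with the 3 genes, giving 51 correlations of within-group deviations. The only one with an adjusted permutation p under 0.05 was Hhatl with the 19 microglia markers, with r = 0.82 (permutation p = 1e-05, the smallest that 100000 shuffles can give, adjusted p = 0.00051) and rho = 0.79 (permutation p = 2e-05, adjusted p = 0.00102). It was positive in each group, with r of 0.85 among Veh, 0.73 among Dox and 0.88 among Dox + ABT rats, and it lay between 0.78 and 0.85 when each rat was left out in turn. Without Dox + ABT rat 4 and Veh rat 11, the 2 rats farthest out on the microglia axis, r was 0.74. Whether the Hhatl and Fcrl2 correlations with this list differ from each other was not tested.

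This relation was also examined against the kinds of library. With deviations from the mean of each group and kind, r was 0.75 in 25 libraries (adjusted permutation p = 0.0367). Within the first kind r was 0.88 in 16 libraries (permutation p = 0.00019, rho = 0.79), and within the second it was 0.38 in 9 libraries (permutation p = 0.458, rho = 0.33). The first principal component itself moved with both sides, with a within-group r of 0.64 with Hhatl and 0.70 with the microglia score, and with the component held constant the correlation of Hhatl and the score was 0.68 (permutation p = 0.00109). The share of ribosomal protein RNA had r = 0.60 with Hhatl. It was 0.94 among Veh, -0.11 among Dox and 0.77 among Dox + ABT rats, where the microglia score had 0.85, 0.73 and 0.88. On deviations from the mean of each group and kind the r with this share was 0.37. The estimated number of reads had r = 0.44 with Hhatl, and 0.79 among Veh rats. The part of these library measures in the relation was not tested.

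The microglia genes went with Hhatl one by one as well, with a positive r for 19 of 19. The highest were Laptm5, a lysosomal membrane protein gene of leukocytes (0.85), Trem2, the lipid-sensing receptor of microglia (0.83), and Csf1r, the receptor on which microglia depend for survival (0.82), and the lowest was Ctss, a lysosomal protease (0.13). The median r was 0.51, beside a median of 0.013 over the 13666 other genes that averaged 20 or more normalized counts. Oligodendrocyte genes also leaned towards Hhatl, with r = 0.54 for the 19 markers of myelinating cells (permutation p = 0.00951, adjusted p = 0.23) and 0.44 for the 8 of newly formed cells (permutation p = 0.0283, adjusted p = 0.289), neither past the adjusted threshold. Striated muscle markers, 3 of which could be scored, gave r = 0.20 (permutation p = 0.353).

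**Figure D4:**
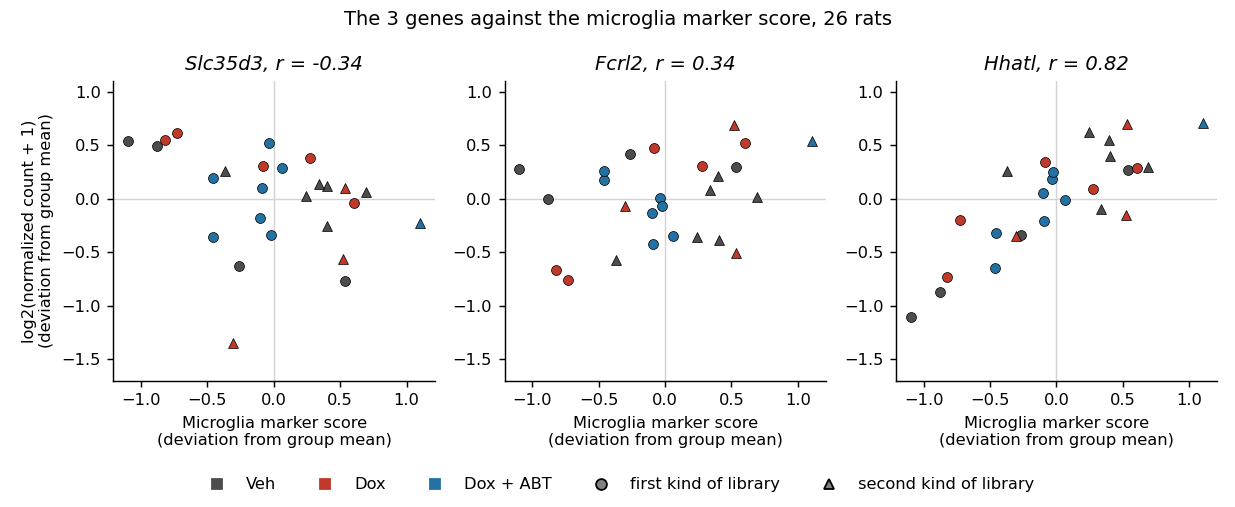
Deviation of each gene from its group mean on the log2(normalized count + 1) scale (y axis) against the deviation of the microglia marker score, a mean of z-scores over 19 genes (x axis), with 1 point per rat, coloured by group and shaped by kind of library. The points of Hhatl rise from lower left to upper right (r = 0.82), whereas those of Fcrl2 (r = 0.34) and Slc35d3 (r = -0.34) scatter more widely.

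Fcrl2, the microglial gene by background, had r = 0.34 with the microglia score over 26 rats (permutation p = 0.111, adjusted p = 0.445). The value was -0.084 in the 10 Veh rats (permutation p = 0.813), 0.67 in the 8 Dox rats (exact permutation p = 0.0829) and 0.39 in the 8 Dox + ABT rats (exact permutation p = 0.357). Spearman's rho was 0.042, 0.67 and -0.071 in the same order. Single markers differed: r was 0.63 for Cx3cr1, the fractalkine receptor, 0.60 for Selplg and 0.47 for Tmem119, but -0.34 for C1qc and -0.31 for C1qb, subunits of the complement component C1q, with 14 of 19 positive and a median of 0.27. By kind of library, Fcrl2 had r of 0.51 with the score in the first (permutation p = 0.116, rho = 0.42). In the second it was 0.40 (permutation p = 0.387, rho = 0.17). On deviations from the mean of each group and kind, r was 0.47 over 25 libraries (permutation p = 0.0571, adjusted p = 0.364), and given the first principal component the partial r was 0.51 over 26 (permutation p = 0.0274).

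The microglia markers were also compared between the groups. In Dox against Veh 7 of 19 tested markers were lower at p under 0.01 and none higher, where 1.85% of all tested genes were lower, and the median log2 difference was -0.37 beside 0.0050 over all genes. When the kind of library entered the fit as a covariate, a choice made after the data were seen, 5 of 19 were lower beside 1.63% of all tested genes, with a median of -0.27. Among the 7 lower markers were P2ry13, a purine receptor (-0.81, limma p = 0.00224, adjusted p = 0.225) and Aif1, a calcium-binding protein (-0.61, limma p = 0.00237, adjusted p = 0.233). In Dox + ABT against Veh 4 of 19 were lower, with a median of -0.19 and 3.95% of all tested genes lower, and with that covariate 0 of 19 were lower beside 0.731% of all. In Dox against Dox + ABT 0 of 19 passed in either direction, with a median of -0.028, where 1.71% of all tested genes were lower and 2.32% higher, and with the covariate 2 of 19 were lower beside 2.04% of all. The summed level of the list ran from 7014 to 12173 normalized counts among Veh, from 6806 to 9732 among Dox and from 6949 to 11444 among Dox + ABT rats. Markers of other glia were compared as well. In Dox against Veh 3 of 11 astrocyte markers were lower and none higher, Gfap, an intermediate filament (-0.75, limma p = 4.07e-05, adjusted p = 0.0547), Aqp4, a water channel (-0.43, limma p = 0.00132), and Aldh1l1, a folate enzyme (-0.43, limma p = 0.0034), with a median over the list of 0.030. Only 5 of the 11 astrocyte differences were below 0, and Fgfr3 (0.39, limma p = 0.0131) had the smallest p of those above 0. Aldh1l1 was the 1 of 11 lower in Dox + ABT against Veh (-0.47, limma p = 0.00175). Aqp4 was the 1 of 11 lower in Dox against Dox + ABT (-0.45, limma p = 0.00135). No astrocyte marker was higher in either. Of 19 myelinating oligodendrocyte markers 4 were lower and none higher in Dox against Veh, with a median of -0.21, and 4 were lower in Dox against Dox + ABT, with a median of -0.18. In Dox + ABT against Veh 2 of these 19 were higher, Opalin (0.63) and Hapln2 (0.79), and none lower, with a median of 0.011. The summed astrocyte level was 67200 to 105890 among Veh, 61895 to 78870 among Dox and 66638 to 93586 among Dox + ABT rats, and the summed myelin list was 52071 to 140140, 56477 to 82984 and 60227 to 124550 in the same order. The part of these cell types in the levels of the 3 genes between groups was not tested.

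Counted against these markers, Fcrl2 came to 18.6 ± 6.06 normalized counts per 1000 microglia marker counts among Veh rats (SD, n = 10). The same ratio was 10.2 ± 3.86 among Dox rats (SD, n = 8) and 18.6 ± 4.31 among Dox + ABT rats (SD, n = 8). The ranges were 12.1 to 29.6, 5.21 to 14.5 and 13.2 to 25.8, so that Dox overlapped the lower part of both other groups. Hhatl on the same scale was 20.5 ± 5.75 for Veh (SD, n = 10), 9.62 ± 2.64 for Dox (SD, n = 8) and 15.2 ± 2.27 for Dox + ABT (SD, n = 8). The Dox ratios rest on the rats in which the genes were chosen for low levels, so nothing is read from them against either other group.

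Slc35d3 showed no correlation with any cell type list past the adjusted threshold. The largest were negative, with newly formed oligodendrocytes (r = -0.54, permutation p = 0.0135, adjusted p = 0.23) and myelinating oligodendrocytes (r = -0.41, permutation p = 0.0185, adjusted p = 0.236). Without Dox rat 5 and Veh rat 10 the first of these was -0.23, and without Veh rat 6 and Dox + ABT rat 4 the second was -0.25. With the microglia score r was -0.34 (permutation p = 0.113) and rho was -0.43 (permutation p = 0.0323, adjusted p = 0.32). That r was -0.65 in the first kind of library (permutation p = 0.0305) and 0.41 in the second (permutation p = 0.566). Without Dox rat 5 it was -0.52. Lists fitting the known sites of Slc35d3 gave r near 0, with -0.098 for the 6 striatal projection neuron genes (permutation p = 0.636) and -0.14 for the 3 platelet genes that could be scored (permutation p = 0.623). Drd1, the D1 receptor, averaged 94.1 normalized counts among Veh, 77.8 among Dox and 99.9 among Dox + ABT rats, and the platelet list summed to at most 69.1 in any rat. Slc35d3 had r = -0.52 with the estimated number of reads of the library, the strongest of the 4 library measures, with -0.48 among Veh, -0.75 among Dox and -0.35 among Dox + ABT rats, and the part of depth in its levels was not tested.

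No other list passed the adjusted threshold. The CA field markers, whose summed level ran from 4430 to 25040 normalized counts over the rats, had r of -0.18 with Slc35d3, -0.074 with Fcrl2 and 0.25 with Hhatl. The granule cell markers had r of -0.15, 0.29 and -0.34 in the same order, and interneuron markers 0.35, -0.20 and -0.065. No permutation p of these 9 was under 0.05. On deviations from the mean of each group and kind, over 25 libraries, Fcrl2 had r = 0.53 with newborn neuron markers (permutation p = 0.0245, adjusted p = 0.334), where the value within groups was 0.35. Hhatl had r = -0.51 with the 3 choroid plexus markers on those deviations (permutation p = 0.021, adjusted p = 0.334), where it was -0.25 within groups.

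**Figure D5:**
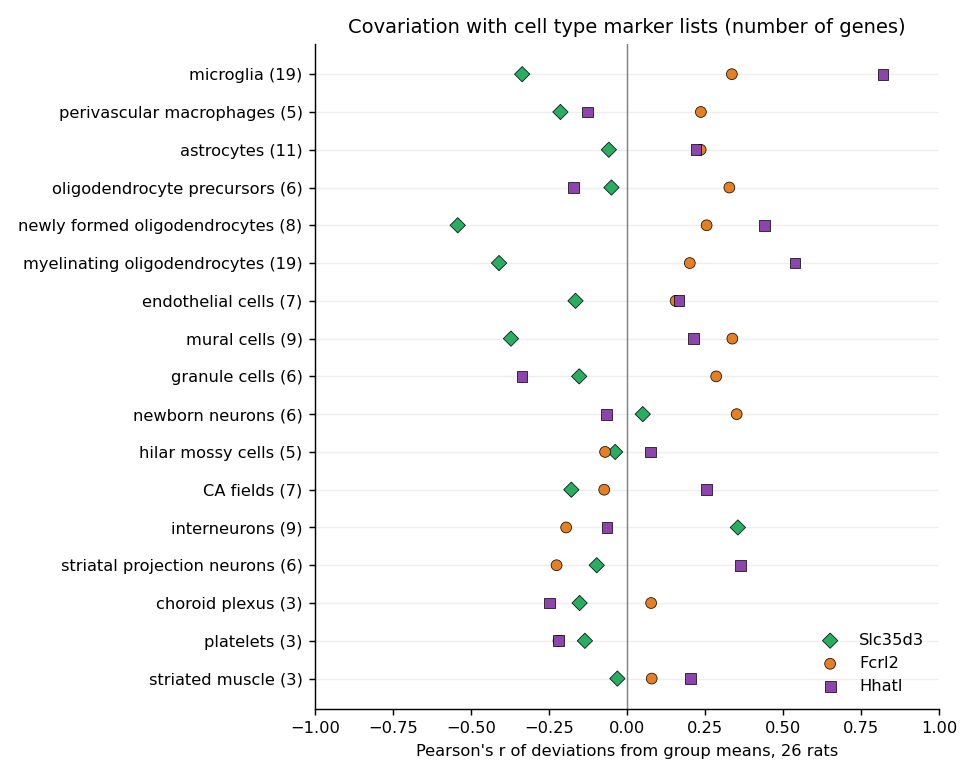
Pearson's r of within-group deviations over 26 rats (x axis) of Slc35d3, Fcrl2 and Hhatl with 17 cell type marker lists (y axis, number of genes in brackets). Hhatl with microglia, at 0.82, stands at the right, and the other 50 values lie between -0.54 and 0.54.

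The genes most like each member were sought by the r of within-group deviations over 26 rats, among the same 13666 genes, as a description. For Slc35d3 the 8 nearest were Cpsf1, a cleavage and polyadenylation factor (0.82), Rps6ka2, a kinase downstream of ERK (0.79), AC105662.2 (0.79), Dnm1, the neuronal dynamin of synaptic vesicle uptake (0.78), Ppp5c (0.77), Cnnm2 (0.77), Tmem121b (0.77) and Slc19a1, a folate carrier (0.77). Their r within Dox ran from 0.79 to 0.98 and within Dox + ABT from 0.28 to 0.75. None of the 8 passed p under 0.01 in Dox against Veh, their log2 differences in limma being -0.03 to 0.15. Of all tested genes 1.85% were lower and 1.02% higher, so nothing is read from this count.

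For Fcrl2 the 8 nearest were Hapln1, a link protein of the extracellular matrix (0.85), Dusp19 (0.83), Fam217b (0.82), Sall1, a transcription factor of microglia and neural progenitors (0.75), Nr2e1, the orphan receptor of neural stem cells (0.75), Tbck (0.75), Tmem100 (0.75) and Nfya (0.74). Hapln1 was lower in Dox than in Veh (log2 difference -0.44, limma p = 0.000323), as were 1.85% of all tested genes. The others of the 8 did not pass p under 0.01, with differences from -0.40 (Dusp19) to 0.073 (Tmem100). The 2 microglia markers Cx3cr1 and Selplg, and the astrocyte water channel Aqp4 were among the 100 nearest genes of Fcrl2.

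For Hhatl the 8 nearest were RGD1559896 (0.88), Shisa5 (0.87), Laptm5 (0.85), Gjb1, the connexin of oligodendrocytes (0.85), Krtcap2 (0.84), Dact3 (0.84), Entpd2, an ectonucleotidase (0.84) and Chchd10, a mitochondrial protein gene (0.84). Laptm5, Trem2 and Csf1r of the microglia list and Gjb1 and Tf of the oligodendrocyte list were among the 100 nearest. Entpd2 was lower in Dox than in Veh (log2 difference -0.62, limma p = 0.000274), as was Laptm5 (-0.58, limma p = 0.00581). The others of the 8 did not pass p under 0.01, with differences from -0.45 (Gjb1) to -0.11 (Dact3). Of all tested genes 1.85% were lower. In the ranking of all genes by likeness to Hhatl, Slc35d3 stood at 8830 and Fcrl2 at 7021, and in the ranking by likeness to Fcrl2, Slc35d3 stood at 12573.

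Relatives of the 3 genes were also compared between the groups. Of 23 tested SLC35 genes other than Slc35d3, 0 were higher or lower in Dox than in Veh at p under 0.01, with a median log2 difference of -0.0024, where 1.85% of all tested genes were lower and 1.02% higher. In Dox + ABT against Veh, Slc35a4 (-0.36, limma p = 0.0027) and Slc35b2, a carrier of the sulfate donor PAPS (-0.34, limma p = 0.0069), were lower and Slc35d1, a carrier of UDP-glucuronic acid (0.30, limma p = 0.00717), was higher, with a median of -0.033 beside -0.00086 over all genes, of which 3.95% were lower and 3.89% higher. In Dox against Dox + ABT, 1 of 23 passed, Slc35b2, which was higher (0.35, limma p = 0.00701), as were 2.32% of all tested genes, and the closest relative in name, Slc35d2, differed by -0.59 (limma p = 0.0138).

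Of 8 tested Fc and scavenger receptor genes, 1 was lower in Dox than in Veh, Fcgr3a, a low-affinity IgG receptor (-0.57, limma p = 0.00697), as were 1.85% of all tested genes. The median of the list was -0.12, and none passed in the other comparisons, with medians of -0.17 and -0.041. Of 8 tested MBOAT acyltransferase genes other than Hhatl, none passed in any of the 3 comparisons, with medians of 0.011, -0.041 and 0.032. Of all tested genes, 1.85% were lower and 1.02% higher in Dox against Veh. These shares were 3.95% and 3.89% in Dox + ABT against Veh and 1.71% and 2.32% in Dox against Dox + ABT. In lists of 8 genes, none passing is near these shares, so nothing is read from it. Hhat, the acyltransferase of Sonic hedgehog, had a mean of 2.69 normalized counts and was under the filter, as was Shh at 4.78.

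Of 14 tested hedgehog pathway genes, 2 were lower in Dox than in Veh, Hhip, a decoy that binds hedgehog ligands (-0.56, limma p = 0.00424), and Boc, a hedgehog co-receptor (-0.32, limma p = 0.006), where 1.85% of all tested genes were lower. In Dox against Dox + ABT, which shares the same 8 Dox rats, the log2 difference was -0.65 for Hhip (limma p = 0.00192) and -0.38 for Boc (limma p = 0.00267), where 1.71% of all tested genes were lower, and none of the 14 passed in Dox + ABT against Veh. The medians of the list were -0.020, 0.088 and -0.13 in Dox against Veh, Dox + ABT against Veh and Dox against Dox + ABT. Ptch1, the receptor of the pathway (-0.059, limma p = 0.598), and Gli1, its transcriptional readout (0.019, limma p = 0.948), did not pass in Dox against Veh.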

How the data were processed

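RNA of the dentate gyrus was sequenced on an Ion Proton in 26 rats. The values the authors deposited are a signal, scaled per library: the authors trimmed reads, aligned them to rn6 with STAR 2.5.3a in Partek Flow, counted them and divided the counts by Median Ratio factors. Raw counts were not recovered for the whole table, since only 74.5% to 79.5% of low values in single-row genes were whole reads within a tolerance of 0.02, so count models were not run here. The members' 78 values were whole reads.

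Groups and rat numbers came from the sample labels. Rows of 1 gene ID were summed (24012 rows, 17910 IDs; each member has 1 row). Differences were fitted in R 4.3.3 with limma 3.58.1 (variance trend, 26 rats, 3 groups) on log2(value + 1) for genes that averaged 5 or more, two-sided, called at p under 0.01 as in the study, and adjusted by the Benjamini-Hochberg method over all tested genes. A fold on this scale understates the change of low genes. Covariation used deviations from group means and 100000 shuffles within groups in Python 3.11.15 with numpy 2.4.6 (seed 1); groups of fewer than 10 rats alone used the exact permutation test. The fit and the correlation test were checked on simulated data. The p-values measure the spread between rats.

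The members and lists were chosen with earlier results of these data known. Named genes were the 3 members, the 8 genes most like each, the 3 genes of a list with the smallest p where a list was described, and markers whose level was the point; other named genes were added after their values were seen, and 1 gene that the rule names is not reported here. The kind of library was to be taken from the first component of within-group deviations, whose largest gap separated 2 Veh rats; the kinds used here come from deviations from the overall mean and were chosen after the data were seen. Alternatives were other pseudocounts, filters, scalings, weights, group sets and blocks, and each rat left out. Rows with no gene name held 0.00985% of the normalized counts. Further sample attributes were not used. RefSeq windows (GRCr8) were matched by symbol for 2 of 3 members, and none of their positions refers to rn6.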

Additional observations from a re-analysis of the deposited data

How the results depend on the processing

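The differences of the 3 genes between Dox and Veh stayed negative under each of the 14 settings and with each of the 26 rats left out in turn, from -1.50 to -1.22 for Slc35d3, -1.15 to -0.95 for Fcrl2 and -1.36 to -1.13 for Hhatl in the latter; the setting that moved one by more than the spread between rats was the second kind of library alone for Slc35d3 (-2.07), and Fcrl2 was at -0.69 with arrayWeights. These refits used the comparison and the rats that chose the genes, so nothing is read from the constant sign. The other two comparisons share rats with the choice of the genes, so the side of p under 0.01 is given for them only to describe the settings. Fcrl2 kept its side in both throughout (-0.27 to -0.14 against Veh and -0.96 to -0.75 against Dox + ABT with a rat left out), though against Veh it was -0.52 in the first kind alone, -0.12 with the replicate block and -0.033 with arrayWeights. Slc35d3 against Dox + ABT ran from -0.97 to -0.69 with a rat left out and left that range of p in the first kind alone (-0.55), and its Dox + ABT against Veh difference (-0.61 to -0.46 with a rat left out, past p under 0.01 without Dox rat 5) passed with arrayWeights (-0.58), the 2 groups alone (-0.52) and the kind of library as a covariate (-0.68). The Hhatl difference of Dox + ABT from Veh moved both ways: it was -0.94 with arrayWeights and -0.87 with the planned gap, ran from -0.74 to -0.53 over all 26 omissions of 1 rat, and was no longer under it with no variance trend (-0.62), the 2 groups alone (-0.62), the replicate block (-0.60), the kind of library (-0.35), transcript rows (-0.62) and the first kind alone (-0.21), and when leaving out 17 of the 26 rats 1 at a time (-0.65 to -0.53), namely each Veh rat except 5, 10 and 11, Dox rats 2, 7, 10 and 13, and each Dox + ABT rat except 4 and 12. Hhatl in Dox against Dox + ABT (-0.71 to -0.51 with a rat left out) was -0.37 with arrayWeights, and passed with the 2 groups alone (-0.61), the planned gap of within-group deviations as a covariate (-0.61) and the kind of library (-0.75), and without Veh rat 11, Dox rat 14 or Dox + ABT rat 6. In each of these the cause was not tested. The counts of genes at p under 0.01 moved more: for Dox against Veh from 448 to 3150 with arrayWeights, 765 with the replicate block, 1377 with the planned gap, 742 in the first kind alone and 266 to 707 with a rat left out, without Dox rat 1 and Veh rat 11; for Dox + ABT against Veh from 1222 to 5297 with arrayWeights, 3133 with the planned gap, 214 with the kind of library, 172 in the first kind and 695 to 2130 with a rat left out, without Dox + ABT rat 5 and Veh rat 11; for Dox against Dox + ABT from 629 to 1612 with arrayWeights, 403 with the replicate block, 1281 in the first kind and 419 to 787 with a rat left out, without Dox + ABT rat 5 and Dox rat 5. The block used rat numbers that name different rats in each group: deviations of same-numbered rats had r of -0.22 to 0.44 over 16 pairs, and 1 of the 16 correlated best with its own number, so the rats share only a number. The pair Slc35d3 and Fcrl2 (-0.50 to -0.29 with a rat left out) passed p under 0.05 without the 2 farthest rats (-0.48) and without Dox rat 5. Slc35d3 and Hhatl (-0.34 to -0.064) gave -0.72 with the replicate block and 0.078 with the planned gap, and Fcrl2 and Hhatl, at about 0, changed sign with Spearman's rho (0.061), the kind of library (0.11), the planned gap (0.088), TMM rescaling (0.0090) and the replicate block (0.32), and ran from -0.13 to 0.088 with a rat left out. The number of list correlations past the adjusted threshold was 1 in the main setting and within 1.5 times of it under all 8 alternatives. Slc35d3 rests on as few as 10 reads in a Dox rat, which limits its precision, and the second kind of library holds 1 Dox + ABT rat, so that treatment with ABT-263 could not be compared within it.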
